A study of Owenia fusiformis with 14 samples.

Results

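The response of *Owenia fusiformis* blastulae to recombinant Activin A (rActivin A) was measured by comparing the 2 libraries labelled Activin with the 2 labelled Mock, 4 of the 14 bulk RNA-seq libraries of the series. The libraries were chosen by these treatment labels alone, and the estimated counts of each transcript were summed per gene as well as analysed per transcript. *O. fusiformis* is a marine annelid with equal spiral cleavage, and its blastulae were collected whole at 6 hours post fertilisation (hpf). Of 27040 genes, 20463 passed the filter on low counts and were tested.

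The labels name no genetic change in any group. The rActivin A embryos received recombinant human/mouse/rat Activin A from 4 to 6 hpf at a concentration labelled 75 ng/µl, although other records of the same experiment give the unit as ng/ml, and which unit holds cannot be told apart from the files. Mock embryos received an equivalent volume of the acidified bovine serum albumin vehicle over the same window. As further controls, 2 libraries came from embryos in 0.4% DMSO from 3 to 6 hpf and 2 from embryos in 0.2% DMSO from 4 to 6 hpf. By the labels, the 0.4% DMSO embryos differed from the rActivin A embryos in solvent and start of treatment, and the 0.2% DMSO embryos in solvent. The labels do not say whether DMSO and mock embryos shared a spawning or a library batch, so solvent cannot be told apart from such a difference. A recombinant BMP4 (rBMP4) group, treated from 4 to 6 hpf beside the same mock, is shown for orientation, and a group given 40 µM SB431542, an inhibitor of Activin/Nodal type I receptors, from 3 to 6 hpf is used only in the fit and in placing libraries. Its sample labels spell the inhibitor SB435421. The protein was added to the medium, its reach to each cell of the embryo was not measured here, and no gene was targeted whose level could check the labels. The labels do not say that replicates were separate cultures, so the p-values measure the spread between libraries, which may be technical. That spread is pooled over all groups in a fit. The rActivin A replicates lay further apart than those of any other group used, so the p-values can understate their spread.

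Activin and Nodal are secreted ligands of the TGF-β family that bind type II and type I receptor kinases, and the receptors phosphorylate SMAD2/3, which enters the nucleus with SMAD4 and changes transcription. Bone morphogenetic proteins (BMPs) are ligands of the same family that act instead through SMAD1/5/8, and Chordin is a secreted antagonist that binds BMPs outside the cell. Both branches pattern body axes in many animals. The comparison asks which genes of the blastula move when rActivin A is added.

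The mock libraries held 26135752 and 23025285 estimated counts, rActivin A replicates 1 and 2 held 16955201 and 9416790, and the 4 DMSO libraries held 16316525 to 22730006. The mean fragment length was 314 bases in rActivin A replicate 2 and 349 to 372 bases in the other 13 libraries. Distances were taken on log2 levels scaled to library size, with a prior count of 2 added before the log. Over 20902 genes, the root mean square log2 distance was 0.475 between the mock replicates and 1.01 between the rActivin A replicates. It was 1.10 to 1.32 between mock and rActivin A libraries. The replicates of rBMP4, SB431542 and 0.4% DMSO lay 0.503 to 0.553 apart. The distance from mock to 0.4% DMSO libraries was 1.04 to 1.15, which overlapped that from mock to rActivin A, and the distance to 0.2% DMSO libraries was 0.933 to 1.09, which lay below it, whereas mock and rBMP4 libraries lay 0.589 to 0.636 apart. The part that depth, fragment length, solvent and any culture or batch difference play in the results below was not tested beyond the alternatives given in the closing section. In whole embryos, fewer cells of a type and less RNA per cell cannot be told apart.

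A gene was called changed when the adjusted p of the edgeR quasi-likelihood test fell under 0.05 and the change was 1 or more on the log2 scale, in either direction. After rActivin A, 3626 genes were called, which is 17.7% of those tested. Of these, 1636 were higher than in mock (7.99% of the genes tested) and 1990 were lower (9.72%). Without the fold-change minimum 8357 genes passed, and 10033 had an unadjusted p below 0.05. The median log2 fold change was 1.79 over the genes called higher and −1.90 over those called lower, against −0.02 over all genes tested. With the 35 higher and 212 lower genes that had no count in the low group placed at their bounds, the medians were 1.79 and −1.83. Both rActivin A libraries lay beyond both mock libraries in 1608 of the genes called higher and in all 1990 called lower, where 31.7% and 36.2% of all genes tested were separated in those directions. In the other 28 genes called higher the groups overlapped. Replicate differences were taken with 0.5 CPM (counts scaled to library size) added to each level, which narrows them for weakly expressed genes. The median absolute log2 difference between the rActivin A replicates was 0.36 over the genes called higher and 0.31 over those called lower. Between the mock replicates it was 0.21 and 0.20. Over all genes tested and on the same scale, 2168 differed over 2-fold between the rActivin A replicates and 142 between the mock replicates.

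**Figure D1:**
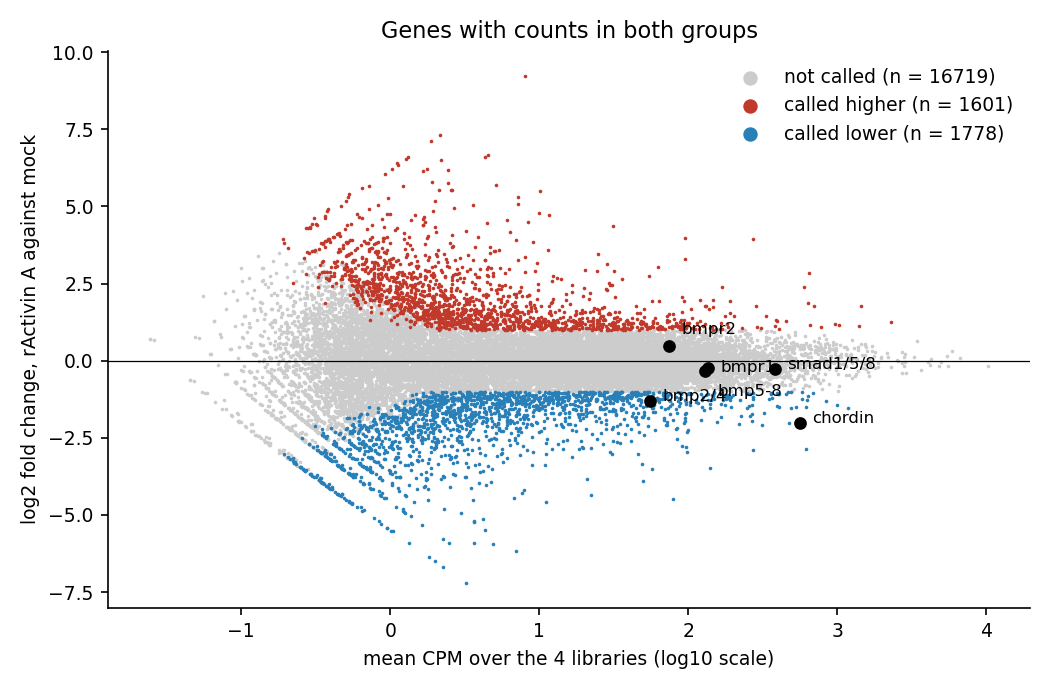
Each point is a gene with counts in both groups, plotted by its mean CPM (counts scaled to library size) over the 4 libraries on a log10 scale and by its log2 fold change, rActivin A against mock. Red and blue mark the 1601 genes called higher and 1778 called lower among those drawn, and black points mark the BMP pathway genes, of which *chordin* stands lowest at −2.03.

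Changes were found at every expression level, but more often in weakly than in strongly expressed genes. On the TPM scale, which is scaled for transcript length, 21.5% of the genes with a mean under 1 TPM were called, 25.5% of those from 1 to 10 TPM, 10.3% from 10 to 100 TPM and 7.74% of those at 100 TPM or more. The median size of the log2 fold change of called genes was 2.99 in the lowest of these classes and 1.25 in the highest. Weakly expressed genes need larger changes to be called, and genes without a count in the low group entered with fitted values. This difference in size therefore follows in part from the calling, and nothing is read from it. Genes called higher had a median of 0.993 TPM in mock and 4.07 TPM after rActivin A, and genes called lower had 4.24 and 0.955 TPM, while the median of all genes tested was 7.02 TPM in mock and 6.39 TPM after rActivin A. As a share of all transcripts, genes called higher took 1.87% and 1.90% of the TPM in the mock libraries and 4.82% and 4.66% in the rActivin A libraries. Genes called lower took 4.98% and 5.29% in mock and 1.66% and 1.88% after rActivin A. In the 4 DMSO libraries both shares lay between those of mock and rActivin A, at 3.29% to 4.16% for the genes called higher and 2.25% to 3.12% for those called lower. The genes were chosen for their difference between mock and rActivin A, so a place between follows in part from that choice and nothing is read from it. By length of the longest transcript, 18.6%, 19.5%, 18.0% and 14.8% of the genes were called from the shortest to the longest quartile.

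Names could be attached to 6 of the genes, all of the BMP pathway, and 2 of these were called, both lower after rActivin A. These were *chordin* (OFUSG13105), the antagonist, and *bmp2/4* (OFUSG12159), a ligand. The list was not chosen for this treatment, and 17.7% of all genes tested were called.

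*chordin* was at 899 and 907 CPM in mock and at 230 and 213 CPM after rActivin A. The groups did not overlap, and each pair of replicates was close. The 0.4% DMSO libraries, at 537 and 557 CPM, and the 0.2% DMSO libraries, at 550 and 464 CPM, lay between mock and rActivin A. The fold change was 4.08-fold lower than mock (log2 −2.03, SE 0.09, n = 2 and 2, edgeR quasi-likelihood adjusted p = 8.1e-11), and *chordin* was also called lower against 0.4% DMSO (log2 −1.30, adjusted p = 8.88e-09) and 0.2% DMSO (log2 −1.19, adjusted p = 1.86e-06). In rBMP4 embryos it was at 435 and 381 CPM.

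*bmp2/4* was at 78.4 and 78.9 CPM in mock and at 31.4 and 31.9 CPM after rActivin A. Unlike *chordin*, it had nearly the mock level in DMSO, with 78.9 and 75.2 CPM in 0.4% DMSO and 84.4 and 79.2 CPM in 0.2% DMSO. Its fold change was 2.49-fold lower than mock (log2 −1.32, SE 0.12, edgeR quasi-likelihood adjusted p = 3.72e-07), −1.29 on the log2 scale against 0.4% DMSO (adjusted p = 5.52e-07) and −1.37 against 0.2% DMSO (adjusted p = 4e-06). The rBMP4 libraries, at 22.01 and 16.8 CPM, were lower still.

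The other ligand, the receptors and the transducer moved by less than the fold-change minimum. *bmpr2* (OFUSG26337), a type II receptor, was at 61.6 and 63.1 CPM in mock and 84.2 and 87.9 CPM after rActivin A (log2 0.46, SE 0.10, edgeR quasi-likelihood adjusted p = 0.00198). It was called higher against 0.4% DMSO, with a log2 fold change of 1.10, and had 0.66 against 0.2% DMSO. *bmp5-8* (OFUSG23310), a ligand, had a log2 fold change of −0.34 against mock (adjusted p = 0.0103) and −0.02 and 0.20 against 0.4% and 0.2% DMSO. *smad1/5/8* (OFUSG02732), the transducer, had −0.26 (adjusted p = 0.036), and *bmpr1* (OFUSG18180), a type I receptor, had −0.23 (adjusted p = 0.225) with overlapping groups of 130 and 165 CPM in mock and 139 and 111 CPM after rActivin A. Without the fold-change minimum 5 of the 6 passed, beside 40.8% of all genes tested. Genes of the Activin/Nodal branch itself are not named here, because the identifiers are not paired with names in the sources used and 0 of them matched the reference gene table.

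**Figure D2:**
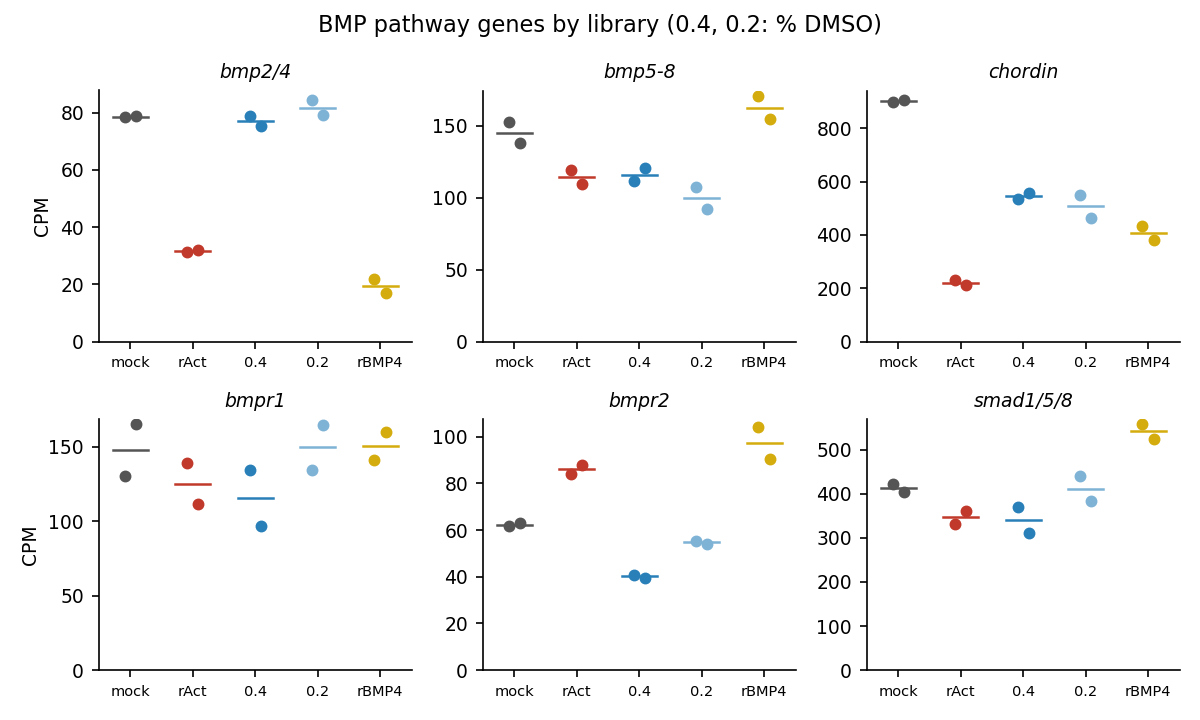
CPM of the BMP pathway genes in each library, as points, with the group mean as a line, for mock, rActivin A (rAct), 0.4% and 0.2% DMSO and rBMP4. *chordin* falls from 899 and 907 CPM in mock to 230 and 213 CPM with the DMSO libraries between, and *bmp2/4* is low only in the rActivin A and rBMP4 libraries among those drawn.

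The remaining genes are given by identifier, without names or roles. Among genes with at least 1 CPM in the lower group and no overlap, the largest rises were of 12.1- to 20.7-fold. OFUSG24163 was at 2.88 and 2.85 CPM in mock and 63.5 and 55.3 CPM after rActivin A, a 20.7-fold rise (log2 4.37, SE 0.21, edgeR quasi-likelihood adjusted p = 1.84e-10). OFUSG07317, the most abundant of the 5, was at 33.3 and 33.2 CPM in mock and 523 and 504 CPM after rActivin A, a 15.4-fold rise (log2 3.95, adjusted p = 7.44e-14). Both genes were lower in every DMSO library than in mock, at 0.392 to 2.67 CPM for OFUSG24163 and 4.18 to 13.1 CPM for OFUSG07317, and the rBMP4 libraries, at 8.70 and 10.1 CPM and at 143 and 132 CPM, stood between mock and rActivin A. OFUSG09074, at 11.1 and 11.5 CPM in mock and 179 CPM in each rActivin A library, stayed at 8.99 and 8.81 CPM with rBMP4. All 5 were called higher against both DMSO groups too, with log2 fold changes of 3.22 to 5.86 against 0.4% DMSO and 2.60 to 7.11 against 0.2% DMSO.

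The largest falls were of 14.3- to 22.5-fold as fitted over all libraries, and the DMSO libraries were low for some of these genes too. OFUSG08660 was at 96.0 and 91.7 CPM in mock and 6.39 and 6.17 CPM after rActivin A, with 15.1 to 26.5 CPM in the DMSO libraries, and it was called lower in all 3 comparisons (log2 −3.90 against mock, −1.95 against 0.4% DMSO and −1.64 against 0.2% DMSO). OFUSG11740 was at 150 and 152 CPM in mock and at 2.75 and 12.2 CPM after rActivin A, so its replicates differed over 4-fold (log2 −4.49, SE 0.35, edgeR quasi-likelihood adjusted p = 4.94e-08). Without rActivin A replicate 1 its log2 fold change was −3.65 and without replicate 2 it was −5.78. It too was called lower against both DMSO groups, whose libraries held 22.4 to 52.1 CPM. The other 3 were low in DMSO as well as after rActivin A. OFUSG25120 was at 15.0 and 14.8 CPM in mock, 0.0597 and 1.95 CPM after rActivin A and 0.145 to 1.90 CPM in DMSO, so that the rActivin A and DMSO libraries overlapped. Its log2 fold change was −4.18, and −2.95 and −7.83 without rActivin A replicates 1 and 2, which was the widest range of the 5. OFUSG19623 and OFUSG09006 were called lower against mock and 0.4% DMSO and not against 0.2% DMSO. The log2 fold change of OFUSG09006 was −3.84, and −4.50 and −3.53 without rActivin A replicates 1 and 2.

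**Figure D3:**
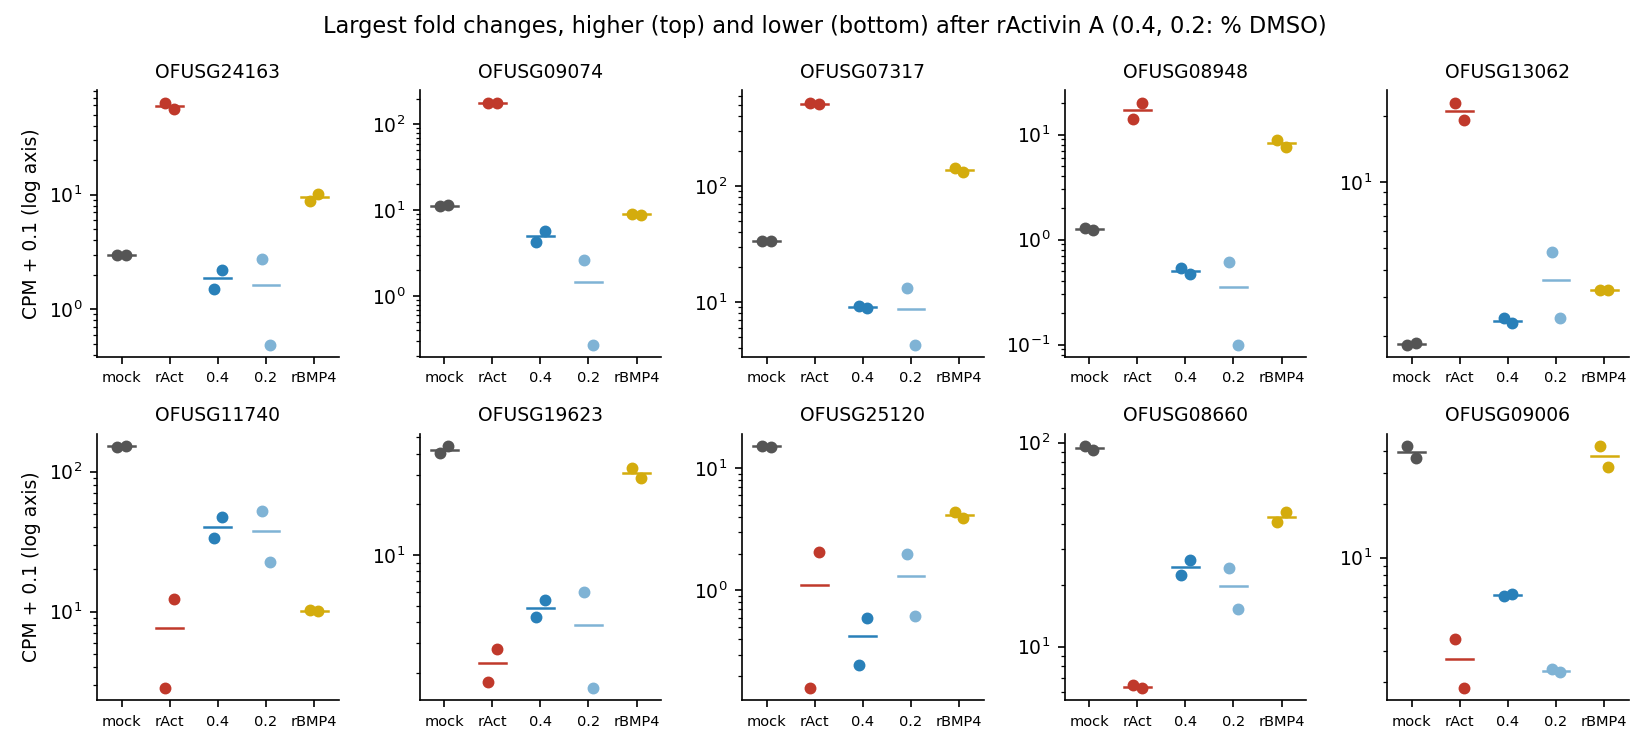
CPM plus 0.1 on a log axis in each library for the 5 largest rises (top) and 5 largest falls (bottom), with the group mean as a line. In the top row both rActivin A libraries lie above all other libraries drawn, and in the bottom row the 0.2% or 0.4% DMSO libraries reach down to the rActivin A level in OFUSG19623, OFUSG25120 and OFUSG09006.

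The strongly expressed genes that were called moved by smaller amounts. Of the 10 genes highest in TPM, OFUSG22118 was called higher against 0.4% DMSO and OFUSG08098 lower against 0.2% DMSO. The others were not called against either DMSO group in the direction of their change against mock. OFUSG17299, OFUSG26509, OFUSG11185 and OFUSG21300 had log2 fold changes of −0.27 to 0.18 against the DMSO groups. OFUSG23486, the highest in TPM of the genes called lower, was at 2763 and 2899 TPM in mock and 1177 and 1060 TPM after rActivin A, with 1471 to 1934 TPM in DMSO. OFUSG22118 rose from 764 and 839 TPM to 1713 and 1654 TPM, and the DMSO groups stood on either side of mock, with 482 and 532 TPM in 0.4% and 1028 and 1176 TPM in 0.2%. OFUSG02449, the highest in TPM of the genes called higher, was at 1360 and 1316 TPM in mock and at 3390 and 2326 TPM after rActivin A, but at 4504 and 4254 TPM in 0.4% DMSO, so it rose against mock (log2 1.18, edgeR quasi-likelihood adjusted p = 0.00406) and had a log2 fold change of −0.70 against 0.4% DMSO (adjusted p = 0.069). Without rActivin A replicate 1 its log2 fold change against mock was 0.81 (adjusted p = 0.057). Of the 10 genes highest in TPM, only OFUSG23486, OFUSG08098 and OFUSG03678 were called in all 4 fits that each left out 1 library.

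A small share of the called genes met the definition of a switch. A gene was taken as switched on where it was called higher, had at most 0.1 CPM in both mock libraries and at least 1 CPM in both rActivin A libraries, and as switched off in the reverse case. There were 29 genes switched on, 1.77% of those called higher, and 43 switched off, 2.16% of those called lower. These numbers depended on the limit, with 8 and 31 genes when no count and 209 and 234 when 0.5 CPM was allowed in the low group. With 1 library left out, a single library has to meet the limit in its group. The rule is then looser and more genes meet it, so such counts cannot show how far the numbers depend on the libraries. All were weakly expressed where on, with mean levels of 1.07 to 16.0 CPM (median 2.23) for the genes switched on and 1.12 to 7.66 CPM (median 1.88) for those switched off. Per length, the medians were 2.84 TPM after rActivin A and 2.21 TPM in mock. The low group held no count at all for 8 of the genes switched on and 31 of those switched off. The limit of 0.1 CPM is worth 2.61 counts in the deepest mock library and 0.942 counts in rActivin A replicate 2, so a single count in that library exceeds it, and a gene switched off is not shown to be silent.

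OFUSG02794 reached the highest level of the genes switched on. It had 1 and 0 counts in mock and 326 and 122 counts after rActivin A, which is 19.5 and 12.5 CPM, a ratio of 826 with a 95% counting interval of 148 to 32702. The DMSO libraries held 28 and 14 counts at 0.4% and 5 and 11 counts at 0.2%, so the gene was weakly present there. It was called higher against both DMSO groups, with log2 fold changes of 3.83 and 5.41. OFUSG12882 had 1 and 0 counts in mock and 59 and 49 after rActivin A, and OFUSG17047 had 0 and 0 in mock and 59 and 17 after rActivin A, at least 42.9-fold higher when the mock group is set to the floor of 3 counts in all. OFUSG24752 was the 1 gene switched on that was also on in both 0.4% DMSO libraries. It had 0 and 0 counts in mock and 33 and 34 after rActivin A, but 60 and 32 in 0.4% DMSO and 0 and 33 in 0.2% DMSO.

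OFUSG21589 was the highest in mock of the genes switched off. It had 161 and 208 counts in mock and 0 in both rActivin A libraries, at least 67.6-fold lower, with 24, 11, 3 and 14 counts in the DMSO libraries. OFUSG21588, whose identifier is the preceding one, had 85 and 52 counts in mock, 0 in both rActivin A libraries and 0 to 11 in DMSO. OFUSG25675 and OFUSG04855 were lost only after rActivin A among these 4 groups. OFUSG25675 had 188 and 128 counts in mock, 1 and 0 after rActivin A and 66 to 117 in DMSO, a ratio of mock to rActivin A of 171 with a 95% counting interval of 30.5 to 6789.6. OFUSG04855 had 34 and 41 counts in mock, 0 in both rActivin A libraries and 62 to 86 in DMSO. OFUSG23017 was the opposite case, with 130 and 91 counts in mock, 1 and 0 after rActivin A and 0 in all 4 DMSO libraries. These intervals and floors cover counting error only.

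In the DMSO groups the switched genes mostly stood at levels between on and off, which follows in part from their choice by the mock and rActivin A levels. Of the 29 genes switched on, 22 were between in 0.4% DMSO, 6 were off and 1 was on, and in 0.2% DMSO 22 were between, 7 off and 0 on. Of the 43 switched off, 28 were between in 0.4% DMSO, 9 off and 6 on, and in 0.2% DMSO 34 were between, 5 off and 4 on. Only 1 gene switched on (OFUSG19723) was also off in both DMSO groups, and 2 genes switched off (OFUSG25675 and OFUSG04855) were on in both. Against both DMSO groups 17 of the 29 genes were called higher and 19 of the 43 were called lower, where 3.45% and 2.58% of all genes tested were called in both of those comparisons. Of the switched genes, 24 of 29 and 38 of 43 have a single annotated transcript.

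**Figure D4:**
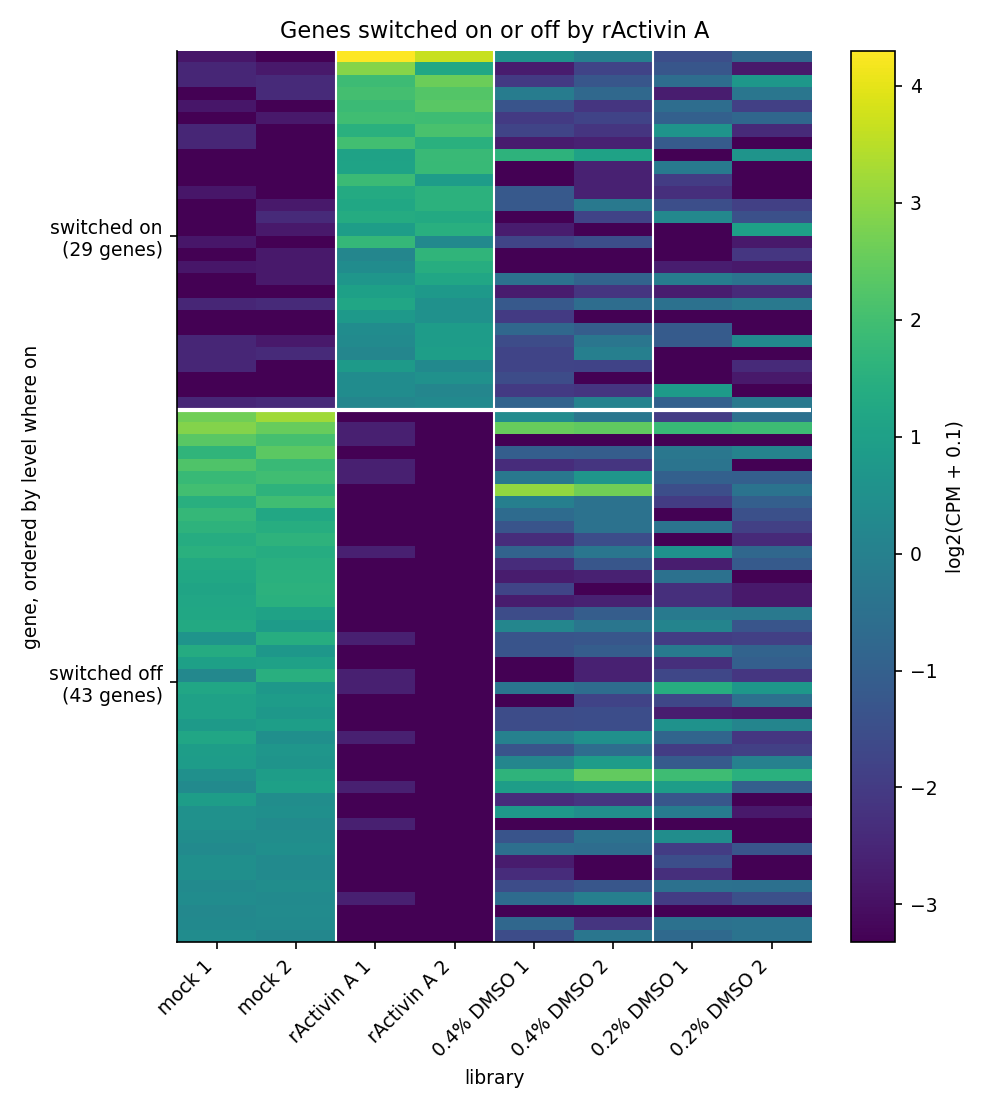
Heatmap of log2(CPM + 0.1) for the 29 genes switched on (top) and 43 switched off (bottom) in the 2 libraries of mock, rActivin A, 0.4% DMSO and 0.2% DMSO, ordered by mean level where on. The DMSO columns hold mostly intermediate colours, in part because the genes were chosen by mock and rActivin A, and single rows such as OFUSG25675 stay bright in all DMSO libraries.

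The DMSO libraries gave further controls for the same rActivin A libraries. The 3 comparisons share those rActivin A libraries and are not independent. Against 0.4% DMSO 3175 genes were called (15.5% of 20463), 1507 higher (7.36%) and 1668 lower (8.15%), and against 0.2% DMSO 2146 (10.3% of 20902), 1135 higher (5.43%) and 1011 lower (4.84%). Of the 3626 genes called against mock, 740 (20.4%) were called in the same direction against both DMSO groups, 397 of those higher (24.3%) and 343 of those lower (17.2%). A further 513 were called against 0.4% DMSO only, 336 against 0.2% DMSO only, and 2037 against neither. Over all genes tested, 6.03% were called in the same direction against both DMSO groups. Calls in the opposite direction were made for 89 genes against 0.4% DMSO and 27 against 0.2% DMSO.

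These genes were chosen for their change against mock, so lower values against another control follow in part from that choice and nothing is read from their size. The genes called higher than in mock had a median log2 fold change of 0.96 against 0.4% DMSO and 1.03 against 0.2% DMSO, where it was 1.79 against mock, and those called lower had −0.85 and −0.93, where it was −1.90 against mock. With genes lacking any count in the low group at their bounds, the medians of the lower genes were −0.77 and −0.84. Over each comparison's own called genes, the median log2 fold change was 1.95 and −2.06 against 0.4% DMSO and 2.06 and −1.85 against 0.2% DMSO, beside 1.79 and −1.90 against mock. Genes with large changes against mock were more often called against both DMSO groups. The comparisons share the rActivin A libraries, so this follows in part from the sorting by size, and nothing is read from it. Among genes called higher the share was 17.9% for log2 fold changes of 1 to 2, 31.0% for 2 to 4 and 40.8% above 4, and among genes called lower it was 11.1%, 19.7% and 33.3%.

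In plain levels, both rActivin A libraries lay beyond all 4 DMSO libraries, in the direction of the change against mock, in 1733 of the 3626 genes (47.8%). These were 867 of those called higher and 866 of those called lower, where 15.9% and 17.3% of all genes tested were so placed. In 1502 of the 1733 the rActivin A libraries also lay beyond the rBMP4 and SB431542 libraries, 767 of those called higher and 735 of those called lower, where 9.12% and 9.75% of all genes tested were so placed. The mock libraries stood apart from DMSO in more of these genes, with both of them beyond all 4 DMSO libraries on the other side in 2043 of the 3626 genes, 775 of those called higher and 1268 of those called lower, where mock lay below all DMSO libraries in 22.8% of all genes tested and above them in 25.1%. In 610 genes both groups stood beyond DMSO on opposite sides, in 1123 only rActivin A did, in 1433 only mock did and in 460 neither did. Which control stands nearer to untreated embryos was not tested, since no untreated library was part of the comparison.

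**Figure D5:**
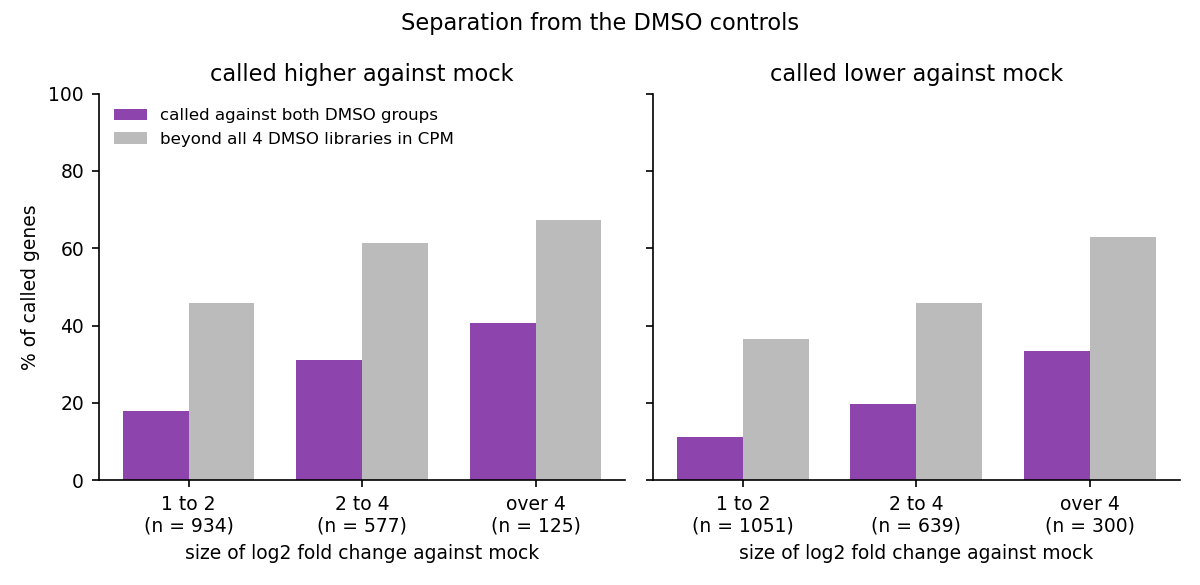
Share of the genes called against mock that were also called in the same direction against both DMSO groups (purple), or whose rActivin A libraries both lay beyond all 4 DMSO libraries in CPM (grey), by the size of the log2 fold change against mock. The purple bars rise from 17.9% to 40.8% for genes called higher (left) and from 11.1% to 33.3% for genes called lower (right). This rise follows in part from the sorting by size, since the comparisons share the rActivin A libraries.

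In 275 called genes the sign turned against both DMSO groups, 102 of those higher and 173 of those lower than in mock. The most extreme of them rested on few counts or on 1 library. OFUSG04463 was at 11.4 and 5.70 CPM in mock, 0.299 and 0 CPM after rActivin A and at most 0.131 CPM in DMSO, so that the turned sign against DMSO came from levels near 0 in both groups. OFUSG11809, at 0 CPM in both mock libraries, was at 0 and 1.03 CPM after rActivin A and 0.0870 to 3.34 CPM in DMSO, and its call against mock was kept in 1 of the 4 fits that left out a library, the fit without rActivin A replicate 1, and under 8 of 14 alternatives in all.

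Per transcript, 3178 of 23432 were called (13.6%), 1318 higher (5.62%) and 1860 lower (7.94%). For 2690 of them (84.6%) the summed gene was called in the same direction, and for 488 it was not called. In 228 of the called transcripts, 81 higher and 147 lower, the gene's sum moved by under 0.5 on the log2 scale. Conversely, 982 of the 3626 called genes had no called transcript. Of these, 788 have a single transcript and thus the same counts in both analyses, so that only the fit and the adjustment over all transcripts differ.

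Of these 228, 83 (36.4%) had no count in the low group, 16 of those higher and 67 of those lower, beside 384 of all 3178 called transcripts (12.1%). The examples here were chosen for the largest fold changes among them. OFUSG13111.2 had 0 counts in both mock libraries and in all 4 DMSO libraries, and 433 and 182 after rActivin A, at least 362-fold higher (edgeR quasi-likelihood adjusted p = 0.00102). Its gene was at 47.4 and 43.0 CPM in mock and 54.8 and 58.6 CPM after rActivin A, a log2 fold change of 0.32. OFUSG09314.2 had 1007 and 721 counts in mock and 0 in both rActivin A libraries, at least 310-fold lower (adjusted p = 0.000341), with 204 to 857 counts in DMSO, while its gene had a log2 fold change of 0.29. OFUSG17825.1, 1 of 4 transcripts of its gene, had 403 and 373 counts in mock, 0 in both rActivin A libraries and 343 to 867 in DMSO, beside a log2 fold change of −0.35 for the gene. Other large changes were less secure. OFUSG03369.3 had 0 counts in both mock libraries and 107 and 135 after rActivin A (log2 10.6, SE 2.51), and was not called by DESeq2 (adjusted p = 0.0837). OFUSG22189.2 had 314 and 255 counts in mock and 0 in both rActivin A libraries (log2 −10.8, SE 3.11, edgeR quasi-likelihood adjusted p = 0.0363). Kallisto divides reads between transcripts that share sequence, so these values are less certain than the gene sums.

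In 38 genes transcripts were called in both directions. In OFUSG10866 the 1308-base transcript OFUSG10866.1 had 0 and 0 counts in mock and 66 and 54 after rActivin A, and the 1384-base transcript OFUSG10866.2 had 250 and 196 in mock and 0 and 0 after rActivin A. The gene's sum fell as well, from 9.60 and 8.60 CPM in mock to 3.94 and 5.55 CPM after rActivin A. Its log2 fold change was −0.97 (edgeR quasi-likelihood adjusted p = 0.00456), just short of the fold-change minimum. The exchange was complete in these 4 libraries, but single DMSO libraries held either or both transcripts. They had 60, 105, 0 and 71 counts of the first and 68, 0, 168 and 41 of the second. In 0.4% DMSO replicate 2 only OFUSG10866.1 was counted and in 0.2% DMSO replicate 1 only OFUSG10866.2, so the transcript that was counted also differed between replicates of 1 treatment. OFUSG00716 and OFUSG17475 showed the same exchange between a pair of transcripts, at edgeR quasi-likelihood adjusted p of 0.00803 to 0.046, and of their 4 called transcripts OFUSG00716.1 alone was called in any fit that left out 1 library.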

How the data were processed

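Per the study's methods, strand-specific poly(A) libraries were trimmed with FastP and assigned with Kallisto (version 0.46.2), and the authors compared groups with DESeq2 (version 1.26.0). The deposited values are estimated counts per transcript, not normalized, and TPM, which the authors' tool scaled for length and depth, and the deposited length and effective length columns gave fragment lengths. The 31977 transcripts shared by all files were kept. Estimated counts were rounded, summed per gene, filtered with filterByExpr, scaled with TMM and tested with the edgeR (version 4.0.16, R version 4.3.3) quasi-likelihood test and Benjamini-Hochberg adjustment over all genes or transcripts tested. The fit against mock and 0.4% DMSO held 10 libraries (mock, rBMP4, rActivin A, 0.4% DMSO, SB431542; 5 residual degrees of freedom), and that against 0.2% DMSO held 12 (6 residual degrees of freedom). CPM comes from the first fit, except for 0.2% DMSO and counts that place libraries beyond all 4 DMSO libraries, which use the second. SE is the log2 fold change divided by the root of F. Ratios with 1 to 3 counts in the low group carry 95% exact intervals (Clopper-Pearson). With 2 replicates against 2, an exact permutation test cannot go below p = 0.333, so model fits were used. The replicates of mock and of rActivin A did not hold the same counts. Scripts were tested on simulated data.

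Named genes followed a rule: the 6 BMP pathway genes, then those with the largest fold change without overlap and at least 1 CPM in the lower group, the highest TPM, the highest level among switched genes, transcripts whose gene sum moved by under 0.5, transcripts called in both directions, and genes with the other sign against both DMSO groups. OFUSG17047, OFUSG24752, OFUSG21588, OFUSG04855 and OFUSG19723 were named after their values were seen. The genes, lists and tests were chosen with earlier results of these data known. Alternatives were DESeq2 (version 1.42.0), its size factors, other filters, library sets, thinning, length offsets, thresholds, a replicate block and leaving out each library.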

Additional observations from a re-analysis of the deposited data

How the results depend on the processing

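Of 128 counts recomputed under the alternatives, 100 stayed within 1.5 times the reported count. DESeq2 called 3411 genes against mock, 3388 of them among the 3626 reported. Without a fold-change minimum the counts were 8357 genes and 6856 transcripts against mock, 7088 genes against 0.4% DMSO, 4816 against 0.2% DMSO, 1566 against all 3 controls and 5 of the 6 BMP pathway genes. With a log2 minimum of 2 they were 1641, 1461, 1577, 1057, 344 and 1. Fitting only the libraries of the 2 groups gave 2834 genes and 2165 transcripts against mock. It gave 2274 genes against 0.4% DMSO, 905 against 0.2% DMSO and 363 against all 3 controls. Taking both rActivin A libraries beyond all 4 DMSO libraries as separation gave 1733 in place of 740.

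The number of switched genes rested on the definition. With no count at all in the low group 8 genes were switched on, and with up to 0.5 CPM allowed 209 were switched on and 234 off. Leaving out 1 library gave 50 to 117 switched on (117 and 55 without rActivin A replicates 1 and 2, 59 and 50 without mock replicates 1 and 2). It gave 59 to 240 switched off (240 and 83 without rActivin A replicates 1 and 2, 59 and 65 without mock replicates 1 and 2). Transcripts called ranged from 1705 to 4111, with 2037 and 1705 without mock replicates 1 and 2, genes called from 2627 to 4224, and genes called against all 3 controls from 560 to 1120, the latter without rActivin A replicate 1. Of the 3626 genes, 1762 (48.6%) were called in all 4 of these fits against mock. With every library thinned to the depth of the smallest, 3009 genes were called, 22 were switched on and 38 off.

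Judged at the log2 minimum of 1 throughout, *chordin* and *bmp2/4* were called under all 15 alternatives. With the log2 minimum of 2, *chordin* passed (log2 −2.03) and *bmp2/4* did not (log2 −1.32). Of 762 single-gene or single-transcript values, 720 kept their side of the threshold, 42 lost it and 0 changed sign. These too were judged at the log2 minimum of 1. Settings that changed only this minimum reused the main fit, so their values, counted among the 720, could not differ. The labels do not say whether the replicate numbers pair the samples. The differences between replicates in mock and in rActivin A had a correlation of 0.01 across genes, which are not independent. This cannot decide it, since the rActivin A replicates also differed in depth and fragment length. The replicate block gave 3459 genes and 2873 transcripts against mock, 3020 genes against 0.4% DMSO, 2010 against 0.2% DMSO, 690 against all 3 controls, 29 switched on, 43 switched off and 2 BMP pathway genes. With 2 libraries per group, the shallower of them holding 9416790 counts, a loss of a weakly expressed gene after rActivin A is limited by the floor of 3 counts over the group.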
